A study of Mus musculus with 4 samples.

Results

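Ventricular RNA was examined here for the 10 genes that encode the main cardiac myosin heavy chains (Myh6, Myh7), myosin light chains (Myl2, Myl3, Myl4, Myl7) and troponin subunits (Tnni1, Tnni3, Tnnt2, Tnnc1), taken by symbol from the 38293 genes of the deposited table. Each symbol matched 1 gene identifier. The cKO group held 2 mouse embryos of genotype Hif1alphaflox/flox/Nkx2.5Cre/+, in which Cre expressed from the Nkx2-5 locus acts on a floxed Hif1a gene in heart muscle precursors. The control group held 2 littermates of genotype Hif1alphaflox/flox/Nkx2.5+/+, which carried the floxed alleles but lacked Cre. All were on a C57BL/6 background at stage E12.5 (midgestation), came from litter 6 and were matched by somite number. The atria and the valve region had been removed, so each library held RNA from the ventricles of 1 heart. A Cre-only group was not part of the comparison, so effects of the Cre or its locus and of Hif1a loss cannot be told apart. The 2 embryos of a group are separate animals of 1 litter.

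Myosin and troponin form the contractile machinery of the sarcomere. Myosin heavy chains are the motor proteins of the thick filament, and each binds a regulatory and an essential light chain. On the thin filament, troponin C binds calcium, troponin I inhibits the contact of actin with myosin, and troponin T ties the complex to tropomyosin. The heart uses different isoforms by age and chamber. In the mouse, Myh7 and Tnni1 are the fetal ventricular forms and are replaced around and after birth by Myh6 and Tnni3, while Myl7 and Myl4 are atrial forms and Myl2 and Myl3 ventricular ones. The comparison asked whether the level or the isoform mix of these genes differed when Hif1a, the oxygen-regulated subunit of HIF-1, was targeted.

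None of the 10 genes passed the test in cKO ventricles (edgeR's quasi-likelihood test, Benjamini-Hochberg adjustment over all 13711 genes tested, threshold 0.05; adjusted p from 0.733 to 0.970). Over all genes tested, 0.511% passed, 0.146% higher and 0.365% lower in cKO. Before adjustment, 0 of the 10 had p under 0.05 by edgeR and by limma-voom and 1 (Myh7) by DESeq2. Over all 13711 genes tested, 956 had p under 0.05 by edgeR, and this count was not taken for the other tools. After adjustment neither DESeq2 nor limma-voom called any of the 10. Over all 13711 genes tested they called 96 and 73, in that order. The log2 fold change, always cKO over control, was positive for 7 genes and negative for 3. Its median was 0.085, beside -0.0003 over all genes tested, and its size had a median of 0.12, beside 0.11 over all genes. Each gene's 95% interval for the fold change lay within 1.5-fold in either direction. These intervals rest on a spread estimated in part from all genes tested, and not from the libraries of that gene alone. The widest bounds were 0.738-fold for Myl7 and 1.47-fold for Tnni3.

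Levels are given as CPM, read counts brought to a common library size and scaled by TMM, edgeR's factor that aligns libraries on the bulk of their genes, with means ± SD of n = 2 embryos each. Total expected counts ran from 9980051 to 19801300 in cKO and from 8561687 to 8989184 in control libraries. cKO replicate 3 was the deepest, and it alone had reads of the Y-linked gene Ddx3y above 1 CPM (101.6 CPM of the total, against at most 0.11 CPM elsewhere). Xist, the RNA of the inactive X chromosome, had 2.13 CPM of the total there, against 2078 CPM in cKO replicate 2 and 2002 and 1770 CPM in control. By these genes sex differed within cKO but not within control, and its part in the values was not tested. Hif1a itself averaged 690 ± 37.9 CPM in cKO hearts and 541 ± 15.8 CPM in control hearts, a sum over all exons that cannot show whether the floxed part was deleted. The 10 genes together took 2.99% and 2.83% of all counts in cKO, against 3.04% and 2.93% in control. This difference of -0.077 percentage points did not pass (exact two-sided permutation test, p = 0.667; the smallest p that 2 against 2 libraries can give is 0.333). The expected counts behind single values ran from 2842 (Tnni3) to 216434 (Myh7).

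**Figure D1:**
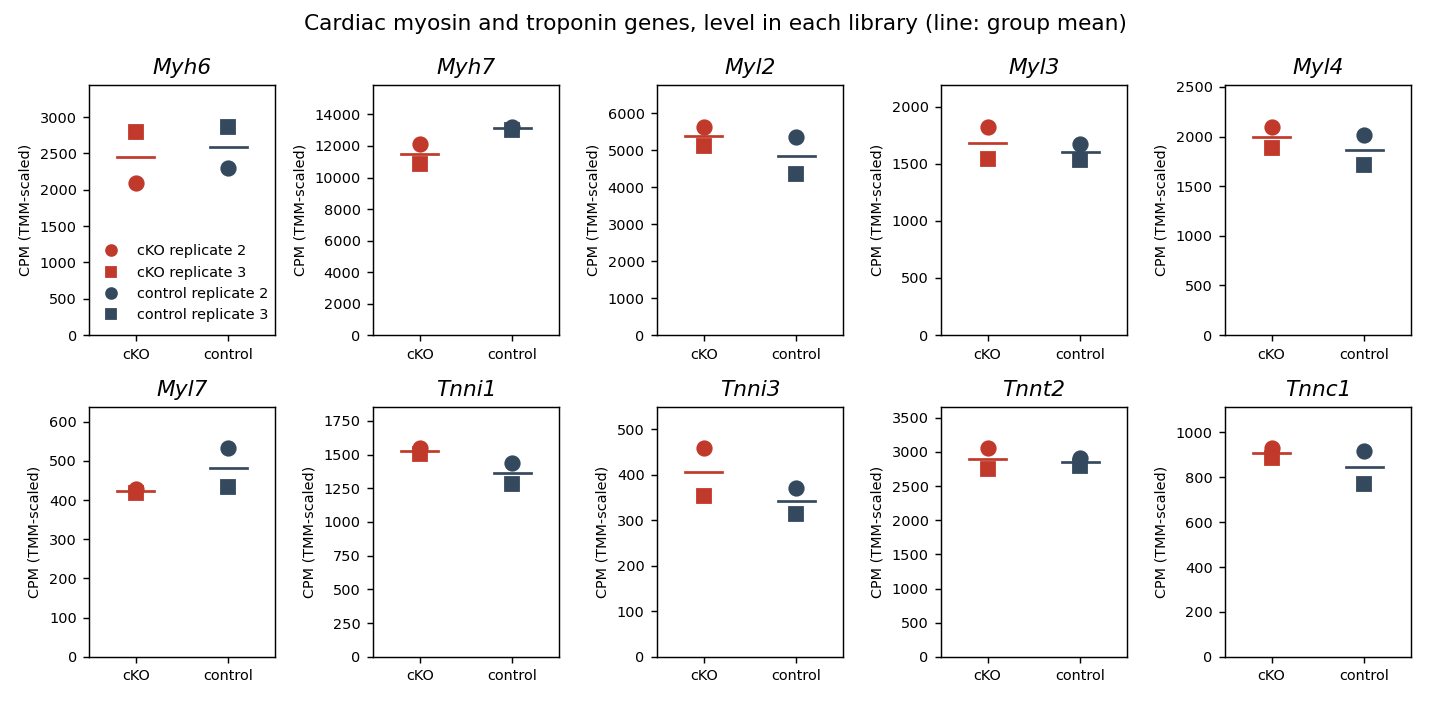
TMM-scaled CPM (y axis, from 0) of each of the 10 genes in cKO (left, red) and control (right, dark) libraries, with circles for replicate 2, squares for replicate 3 and lines for group means. The groups share values or lie close together for most genes, and only Myh7, Myl7 and Tnni1 show no overlap.

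Myh7, the slow β heavy chain that dominates the fetal ventricle (ENSMUSG00000053093, GRCm38 chromosome 14, 54970684 to 54994626, minus strand), stood at 12098 and 10872 CPM in cKO, against 13228 and 13004 CPM in control. Both cKO libraries were below both controls. It was the gene with the second highest count in every library. Its log2 fold change was -0.19 ± 0.09 (SE; edgeR's quasi-likelihood test, adjusted p = 0.733), with a 95% interval from -0.40 to 0.021. With any 1 library left out the value lay between -0.27 and -0.12, where a change of sign was hardly possible without overlap of the groups.

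Myh6, the fast α heavy chain of the atria and the adult mouse ventricle (ENSMUSG00000040752, chromosome 14, 54941921 to 54966927, minus strand), had 2097 and 2800 CPM in cKO and 2296 and 2869 CPM in control. The groups overlapped, and the embryos of each group differed more than the group means did (2448 ± 497 CPM in cKO and 2582 ± 405 CPM in control). The log2 fold change was -0.077 ± 0.16 (edgeR, adjusted p = 0.945), and it turned positive when cKO replicate 2 (0.12) or control replicate 3 (0.093) was left out. Myh6 and Myh7 lie next to each other and are similar in sequence. Of the windows of 75 bases, the read length, in the longest coding transcript, 15.5% in Myh6 and 19.7% in Myh7 occur also in a transcript of another gene. All 939 such windows of Myh6 occur in Myh7. The authors' counts divide such reads by estimate, and none of the 8 values of these genes was within 0.005 of a whole number. Summed as 1 gene, the heavy chains had a log2 fold change of -0.17 ± 0.08 (edgeR, adjusted p = 0.726). The library kit does not mark strand, and Mhrt, a noncoding gene antisense to Myh7, had 227 and 422 expected counts in cKO and 189.9 and 187 in control, against at least 111902 for Myh7.

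Among light chains, Myl2, the ventricular regulatory chain (ENSMUSG00000013936, chromosome 5, 122100951 to 122113472, plus strand), had 5637 and 5110 CPM in cKO and 5356 and 4352 CPM in control. The groups overlapped, with the highest value in cKO replicate 2 and the lowest in control replicate 3, and the log2 fold change was 0.15 ± 0.12 (edgeR, adjusted p = 0.840), or 0.0051 without control replicate 3. Myl7, the atrial regulatory chain, which is also expressed in the early ventricle (ENSMUSG00000020469, chromosome 11, 5896637 to 5898782, minus strand), had 429 and 418 CPM in cKO and 532 and 433 CPM in control. Both cKO libraries were below both controls, with control replicate 3 close to cKO replicate 2. The log2 fold change of Myl7 was -0.19 ± 0.11 (adjusted p = 0.768), and it was -0.032 without control replicate 2.

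The essential light chains brace the lever arm of the myosin head. Myl3, the ventricular form (ENSMUSG00000059741, chromosome 9, 110741861 to 110769798, plus strand), had 1825 and 1542 CPM in cKO and 1673 and 1536 CPM in control. Myl4, the atrial form, which the fetal ventricle also makes (ENSMUSG00000061086, chromosome 11, 104550663 to 104595753, plus strand), had 2100 and 1887 CPM in cKO and 2011 and 1709 CPM in control. Both genes overlapped between groups. Their log2 fold changes were 0.069 ± 0.11 and 0.10 ± 0.11 (edgeR, adjusted p = 0.925 and 0.890), and each turned negative with 1 library left out, to -0.056 for Myl3 without cKO replicate 2 and -0.012 for Myl4 without control replicate 3.

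Of the troponins, Tnni1, the slow skeletal inhibitory subunit that the fetal heart uses (ENSMUSG00000026418, chromosome 1, 135779434 to 135810989, plus strand), had 1546 and 1504 CPM in cKO and 1440 and 1280 CPM in control. Both cKO libraries were above both controls, and the log2 fold change was 0.16 ± 0.10 (edgeR, adjusted p = 0.768), or 0.083 without control replicate 3. Tnni3, the cardiac inhibitory subunit of the mature heart (ENSMUSG00000035458, chromosome 7, 4518305 to 4524229, minus strand), had 458 and 353 CPM in cKO and 371 and 313 CPM in control. It had the largest log2 fold change of the 10, 0.24 ± 0.14 (adjusted p = 0.765), but the groups overlapped and the value was 0.044 without cKO replicate 2. That library was also the one with the highest level of Nppa, the atrial natriuretic peptide gene of trabecular muscle (4176 CPM, against 1847 CPM in cKO replicate 3 and 2343 and 2184 CPM in control); its part in the Tnni3 value was not tested.

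Tnnt2, the cardiac tropomyosin-binding subunit (ENSMUSG00000026414, chromosome 1, 135836354 to 135852260, plus strand), had 3052 and 2746 CPM in cKO and 2904 and 2795 CPM in control, the cKO pair lying on both sides of the controls. Its log2 fold change of 0.025 ± 0.09 was the smallest in size. Gene-level counts hold its fetal and adult splice forms together. Tnnc1, the calcium-binding subunit (ENSMUSG00000091898, chromosome 14, 31208312 to 31211729, plus strand), had 929 and 885 CPM in cKO and 918 and 770 CPM in control. The groups overlapped, with a log2 fold change of 0.10 ± 0.11 (edgeR, adjusted p = 0.881).

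In all, 3 of the 10 genes showed no overlap between groups, Myh7 and Myl7 lower and Tnni1 higher in cKO. Over all genes tested 38.2% showed no overlap, 19.4% higher and 18.8% lower, so this share is no larger than the background. The log2 difference between the 2 cKO embryos had a median size of 0.15 over the 10 genes, and that between the 2 control embryos 0.24. These are differences between single libraries, and the difference between group means had a median size of 0.12. By TMM-scaled CPM, in each group 9 of the 10 genes were higher in replicate 2 than in replicate 3, and Myh6 was the exception in both. For Myh7 in control this depended on TMM, as its share of all counts was 1.307% in replicate 2 and 1.312% in replicate 3.

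**Figure D2:**
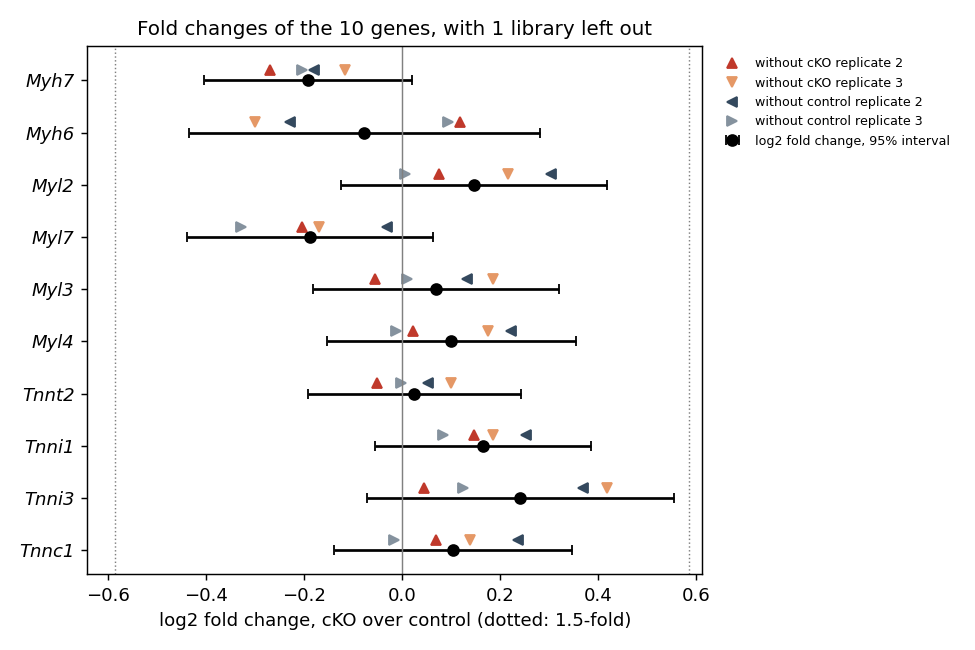
Log2 fold change of each gene, cKO over control (x axis), with its 95% interval from edgeR's quasi-likelihood fit (black) and the values with 1 library left out (triangles); dotted lines mark 1.5-fold. Every black interval crosses 0 and ends inside the dotted lines, and Myh6, Myl3, Myl4, Tnnt2 and Tnnc1 have leave-out values on both sides of 0.

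The fetal to adult ratios did not differ between groups beyond the spread of the embryos. A ratio of 2 genes within a library needs no scaling between libraries; each gene's expected count was divided by its length in merged GENCODE exons. Myh7 over Myh6 was 4.50 and 3.03 in cKO and 4.50 and 3.54 in control. The groups overlapped, and the difference of mean log2 ratios was -0.11 (exact two-sided permutation test, p = 1.0) and ran from -0.40 to 0.18 with 1 library left out. Tnni1 over Tnni3 was 1.94 and 2.44 in cKO and 2.22 and 2.34 in control, the cKO pair lying on both sides of the controls, with a log2 difference of -0.068 (exact permutation p = 1.0). Myh6 made up 18.2% and 24.8% of the heavy chain signal per kilobase in cKO, against 18.2% and 22.0% in control. Tnni3 made up 34.1% and 29.0% of the troponin I signal in cKO, against 31.0% and 29.9% in control. In all 4 libraries the fetal form was the more abundant one of each pair.

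The atrial to ventricular ratio of the regulatory light chains was lower in both cKO libraries than in both controls. Myl7 over Myl2 was 0.251 and 0.270 in cKO, against 0.328 and 0.328 in control. The controls were nearly equal in this ratio although Myl7 and Myl2 each differed 1.23-fold between them. The difference of mean log2 ratios was -0.33, a ratio 0.794 times that of control, and it ran from -0.39 to -0.28 with 1 library left out. Its sign could not change in this way, as the groups did not overlap. The exact two-sided permutation test gave p = 0.333, the smallest value the design allows, so it cannot pass. Myl7 made up 20.7 ± 0.85% of the regulatory light chain signal per kilobase in cKO and 24.7 ± 0.013% in control (SD, n = 2 each). With the length of the longest coding transcript in place of merged exons, these shares were 10.28% and 10.97% in cKO and 13.01% and 13.03% in control, and the mean ratio was 0.119 in cKO and 0.150 in control. The essential light chains showed no such separation. Myl4 over Myl3 was 0.507 and 0.540 in cKO and 0.530 and 0.490 in control, with a log2 difference of 0.037 (exact permutation p = 0.667).

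**Figure D3:**
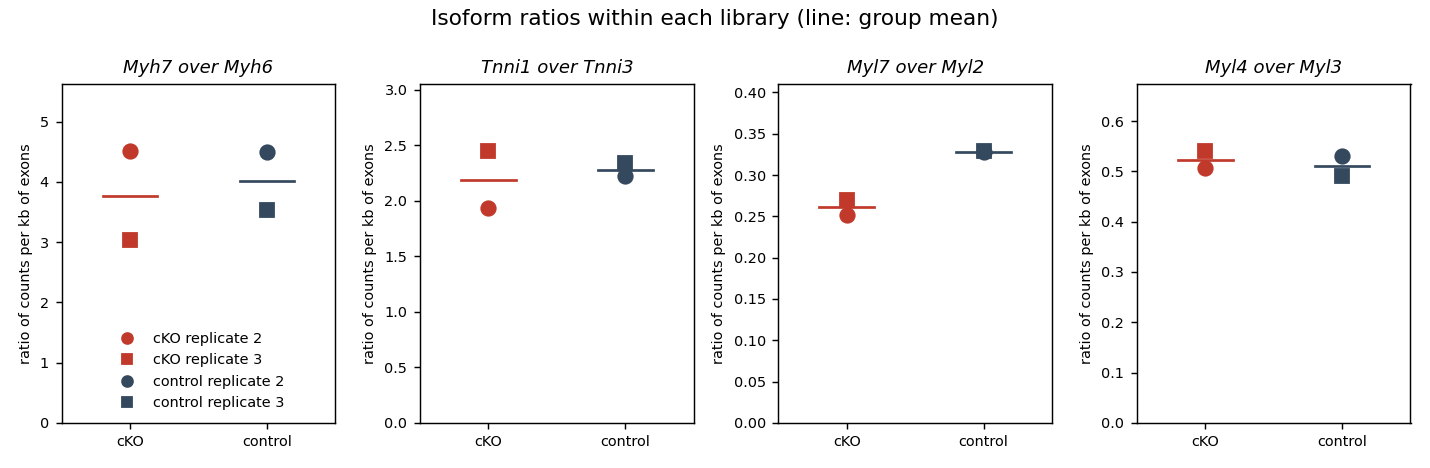
Ratio of expected counts per kilobase of merged exons (y axis, from 0) for 4 isoform pairs in cKO (left, red) and control (right, dark) libraries, with circles for replicate 2, squares for replicate 3 and lines for group means. The ratio of Myl7 to Myl2 lies between 0.251 and 0.270 in cKO and at 0.328 in both controls, and the other 3 ratios overlap.

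Myl7 and Myl4 are atrial genes, so the level of other atrial genes is given beside these ratios. Of 11 atrial and inflow markers 8 were tested and none passed (4 positive and 4 negative, median -0.0098), and those with the smallest p were the potassium channel gene Kcna5 (-1.05) and Mybphl (0.52). The 11 summed to 335 and 278 CPM of the total in cKO, against 310 and 288 CPM in control. The markers not tested were near 0. Sln, which encodes the atrial calcium pump inhibitor sarcolipin, had 2 and 3 counts in cKO libraries and 0 in both control libraries. Shox2 had 5 and 10 in cKO and 3 and 2 in control, and Fgf12 went the other way, with 3 and 4 in cKO and 6 and 5 in control. These counts are not scaled for depth, and cKO replicate 3 was the deepest library. The 8 ventricular markers had a median log2 fold change of 0.022 (-0.064 without cKO replicate 2), with none past the test, and the smallest p belonged to Gja1 (0.17) and Hey2 (-0.16). The part of atrial RNA in the ratio was not tested. In bulk RNA a change in the number of cells of a type and a change in RNA per cell cannot be told apart.

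The ratio of light to heavy chain was chosen after its values were seen and shares its genes with results above, so it is a description with no test. Myl2 over Myh7 was 2.06 and 2.08 in cKO, against 1.79 and 1.48 in control, a log2 difference of 0.35, or 0.21 without control replicate 3. Myl2 and Myh7 differ in length, with longest coding transcripts of 889 and 6230 bases. Over 12691 genes tested that have a coding transcript, Spearman's correlation of its length with the log2 fold change was -0.26. It was -0.36 over the 10 genes and -0.13 and -0.18 for the difference of replicate 2 from replicate 3 within cKO and within control. These are descriptions across genes of the same 4 libraries, and the part of transcript length in the ratios was not tested.

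Between genes, levels per kilobase depended on which length was used. Per kilobase of merged exons, Myl2 was highest (2749 ± 162 in cKO and 2483 ± 327 in control, in CPM of the total per kilobase) and Myh7 next (1330 ± 86.4 and 1520 ± 4.03). Tnnc1 (869 ± 20.5 and 809 ± 88.4), Myl3 (821 ± 89.2 and 783 ± 35.7) and Myl7 (716 ± 5.30 and 815 ± 107) followed. In control these 3 did not differ beyond their spread, and in cKO Myl7 lay below Tnnc1 by more than their spread. Myl4, Myh6, Tnni1 and Tnnt2 lay between 364 and 429 in cKO and between 367 and 400.1 in control, and Tnni3 was lowest (196 ± 33.8 and 166 ± 17.4). Per kilobase of the longest coding transcript, an alternative chosen after the data were seen, Myl2 was again highest (6030 ± 356 and 5446 ± 717). Tnnt2, whose merged exons include long noncoding forms, then came next (2410 ± 155 and 2370 ± 29.3). The ratio of Myl4 to Myl3 was 1.18 in cKO and 1.15 in control on that scale, in place of 0.523 and 0.510, so which of the 2 is more abundant depends on the length. The log2 differences of these ratios between groups do not.

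The 3 genes without overlap are shown with the 250 bases before their RefSeq start site (build GRCm38.p6, written 5′ to 3′ on the gene's strand). The counts are per gene and do not show which start was used; Myh7 and Tnni1 each have 2 RefSeq starts, and the more upstream one is shown. Capitals mark matches on either strand to the motifs searched, which were ACGTG and GCGTG (cores of the HIF binding site), TNAAGTG (NKX2-5), the CArG box (SRF) and the MEF2 box. The places are chr14:54994627-54994876 (minus strand) for Myh7, chr11:5898783-5899032 (minus strand) for Myl7 and chr1:135799171-135799420 (plus strand) for Tnni1.
Myh7: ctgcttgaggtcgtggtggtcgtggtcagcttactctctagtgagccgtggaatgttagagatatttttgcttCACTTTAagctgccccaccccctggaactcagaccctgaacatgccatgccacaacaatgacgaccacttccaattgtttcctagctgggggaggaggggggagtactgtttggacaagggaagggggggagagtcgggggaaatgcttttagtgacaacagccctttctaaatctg
Myl7: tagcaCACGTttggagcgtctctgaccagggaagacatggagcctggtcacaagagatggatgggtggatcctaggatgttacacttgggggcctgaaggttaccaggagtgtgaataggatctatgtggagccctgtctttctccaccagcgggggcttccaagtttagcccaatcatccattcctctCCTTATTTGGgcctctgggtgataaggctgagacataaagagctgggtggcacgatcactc
Tnni1: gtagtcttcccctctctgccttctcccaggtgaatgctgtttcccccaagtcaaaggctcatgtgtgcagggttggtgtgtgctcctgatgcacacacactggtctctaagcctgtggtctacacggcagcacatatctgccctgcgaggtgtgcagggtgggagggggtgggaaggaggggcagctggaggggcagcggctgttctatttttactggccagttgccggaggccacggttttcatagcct

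Myl7 held the letters ACGTG, read on the opposite strand, and a CArG box, and Myh7 held TNAAGTG on the opposite strand. The window of the other Myh7 start, at 54994549, held none of the 5 motifs, and neither window of Tnni1 (starts at 135799421 and 135799511) held any. No 2 matches overlapped. Over the RefSeq windows of all 10 genes (14 windows of 300 bases, which include the first bases of the transcript), ACGTG was in 1, GCGTG in 2 (Myl4 and Tnnt2), TNAAGTG in 1, the CArG box in 2 (Myl7 and Myl3) and the MEF2 box in 0. Among all 32851 windows of this length in the table, 19.6% held ACGTG, 32.4% GCGTG, 11.5% TNAAGTG, 1.63% the CArG box and 3.19% the MEF2 box. A match of letters is a description and no evidence of binding. Both Myl2 windows in the table lie 7762 and 8227 bases from the nearest annotated coding start of that gene, so its main promoter is not shown.

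None of the 25 other sarcomere genes passed either (7 positive and 18 negative log2 fold changes, median -0.034). This list, drawn from textbook knowledge, holds thick and thin filament, Z-disc and M-band genes and others linked to them. The smallest p belonged to Acta1, the skeletal form of sarcomeric actin that the fetal heart also makes, which had 62.8 and 86.3 CPM in cKO against 121 and 184 CPM in control. Both cKO libraries were below both controls, with a log2 fold change of -1.03 ± 0.20 (edgeR, adjusted p = 0.118), and it was called without cKO replicate 3 (adjusted p = 0.0444), without control replicate 2 (0.0457) and with a replicate block (0.0017), but not without control replicate 3 (0.444) or with DESeq2 (0.391). Actn2, the Z-disc protein α-actinin, had 989 and 991 CPM in cKO against 1096 and 1181 CPM in control (-0.20 ± 0.09, adjusted p = 0.708).

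Of 21 other isoforms of the same families (skeletal, smooth muscle and non-muscle myosins and troponins), 13 were measured and none passed (6 positive and 7 negative, median -0.082). Myl12b, a non-muscle regulatory light chain, had 60.5 and 51.7 CPM in cKO against 39.4 and 36.8 CPM in control (log2 fold change 0.55 ± 0.11, adjusted p = 0.108). Tnni2, the fast skeletal inhibitory subunit, had 4.86 and 16.0 CPM in cKO against 17.0 and 30.3 CPM in control (-1.09 ± 0.44, adjusted p = 0.689). The skeletal muscle enzyme gene Ckm was also lowest in cKO replicate 2 (8.19 CPM, against 29.3 CPM in cKO replicate 3 and 27.3 and 32.7 CPM in control), and its part in the Tnni2 value was not tested. Myh2 and Tnnc2 had 0 counts in every library, as did Myf5 among the skeletal muscle factors, and Myod1, Myf6, Myog and Pax7 had at most 5.

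None of 20 transcription factors and RNA regulators known to act on these genes passed (7 positive and 13 negative, median -0.037). Nkx2-5, the cardiac homeobox factor whose locus carries the Cre, had 44.3 and 42.1 CPM in cKO against 55.9 and 64.9 CPM in control (log2 fold change -0.49 ± 0.10, adjusted p = 0.153). Myocd, the SRF coactivator that drives CArG box genes, had 96.7 and 107 CPM in cKO against 123 and 128 CPM in control (-0.30 ± 0.09, adjusted p = 0.474). Both were lower in both cKO libraries without passing edgeR's test.

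**Figure D4:**
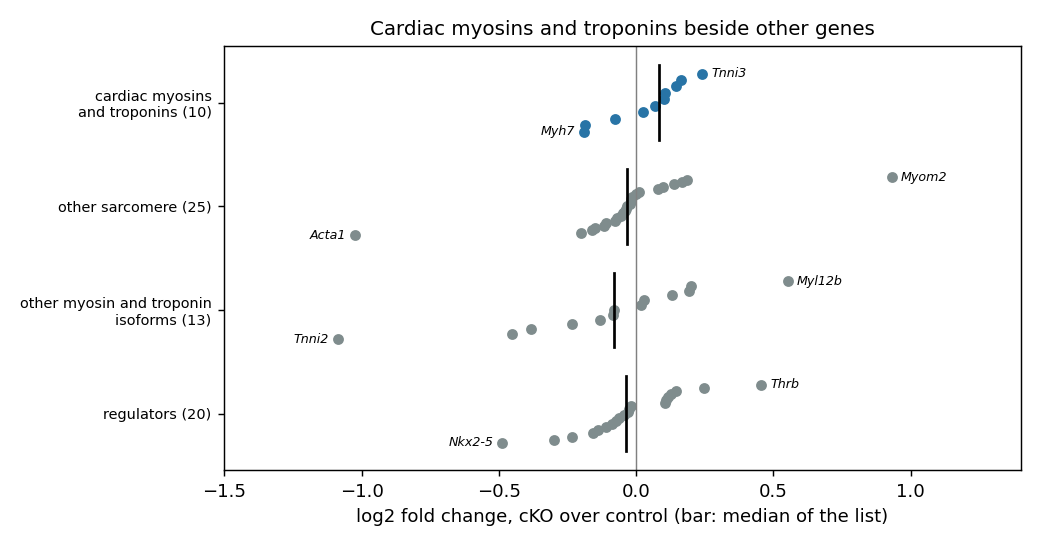
Log2 fold change, cKO over control (x axis), of the 10 cardiac myosin and troponin genes and of the measured genes of 3 lists, with the lowest and highest gene of each named and a bar at each list's median. The 10 genes lie between -0.19 and 0.24, inside the range of each of the other lists.

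Markers of other cells give the setting of these values. The 6 defining genes of heart muscle (Ttn, Ryr2, Actc1, Actn2, Nkx2-5 and Tnnt2) were detected in every library. They summed to 16824 and 17294 CPM of the total in cKO, against 18440 and 17826 CPM in control. Tnnt2 is also 1 of the 10 genes and the Nkx2-5 locus carries the Cre, so this sum is not independent of either. Krt19 was the 1 of 7 epicardial genes that passed (21.7 ± 5.27 CPM in cKO and 43.4 ± 2.87 CPM in control, edgeR adjusted p = 0.0347; not called without cKO replicate 3 or either control library); Msln, with the next smallest p, stood at -0.69 on the log2 scale (adjusted p = 0.137). None of the measured trabecular (6), compact (5), endothelial (8), cushion and mesenchyme (6), erythroid (10) and skeletal muscle (2) markers passed. Their medians were 0.25, -0.049, -0.17, -0.037, -0.24 and -0.55 on the log2 scale, in that order. All 8 endothelial, all 10 erythroid and both skeletal muscle genes had negative values, as had 1 of 6 trabecular, 3 of 5 compact and 4 of 6 cushion genes. Without cKO replicate 2 the trabecular median was -0.16, the erythroid one 0.26 and the cushion one 0.098, and without control replicate 3 the cushion median was 0.22 and the compact one 0.012. The genes with the smallest p were Cpne5 (0.81) and Nppb (0.22) of the trabecular list, Mycn (-0.35) and Hey2 (-0.16) of the compact one, Flt1 (-0.29) and Pecam1 (-0.23) of the endothelial one, Col2a1 (-1.67) and Sox9 (0.43) of the cushion one, Slc4a1 (-0.66) and Hba-x (-0.52) of the erythroid one, and Ckm (-0.59) and Actn3 (-0.52) of the skeletal one. The erythroid genes summed to 2812 and 6904 CPM of the total in cKO, against 5297 and 6282 CPM in control, with the low value in cKO replicate 2. With erythroid and mitochondrial genes taken out of the total, the 10 genes together took 3.28% and 3.08% in cKO, against 3.32% and 3.17% in control. That is a difference of -0.063 points. The part of erythroid genes in the levels of single genes was not tested.

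For the 3 genes with the smallest p, the genes of at least 50 CPM with the most similar pattern over the 4 libraries were taken by the root-mean-square difference of centred log2 CPM. They were Kdr, 1190002N15Rik and Nav1 for Myh7 (0.011 to 0.017), Acot13, Srpk3 and Corin for Tnni3 (0.029 to 0.037), and Prdx4, Tm4sf1 and Fam76b for Myl7 (0.018 to 0.034). With 4441 genes compared over 4 libraries, a close match of this kind is only a description.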

How the data were processed

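The values deposited by the authors are expected counts, estimates in which a read that matches several genes is split. The build GRCm38 and the tools RSEM 1.2.3, cutadapt 1.3 and CASAVA 1.8.2 are named, with no order, per the submitters' processing notes. Annotation and settings: not given in the sources used here. TruSeq v2 libraries from 500 ng of RNA gave single reads of 75 bases, per the labels' protocols; this kit does not mark strand. Symbols, positions and lengths came from GENCODE release 21 for mouse.

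Expected counts were rounded. After edgeR's default filter on low counts (minimum count 10, total 15) 13711 genes remained, which were scaled by TMM and tested with edgeR 4.0.16 in R 4.3.3 on 2 residual degrees of freedom. Each SE was taken from the fold change and the F statistic. Other settings, with DESeq2 1.42.0 and limma 3.58.1 among them, are under the closing section. P-values of edgeR weigh the group difference against the spread between embryos of a group, estimated in part from all genes tested. The p-values and intervals of edgeR also use degrees of freedom gained by sharing information across genes, beyond the 2 residual ones. The genes and lists were chosen with earlier results of these data known. Genes named are the 10, Hif1a and Nkx2-5, the 2 of each list with the smallest p, and the nearest patterns. Nppa, Sln, Shox2, Fgf12, Mhrt, Ddx3y, Xist, Ttn, Ryr2, Actc1, Ckm beside Tnni2 and genes at or near 0 were named after their values were seen. Protein sequences were not used here.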

Additional observations from a re-analysis of the deposited data

How the results depend on the processing

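None of the 10 genes was called under any setting run (DESeq2 size factors, upper-quartile or total count scaling, TMM without the 10 genes, no filter, a mean of at least 5 CPM, DESeq2, limma-voom, Myh6 and Myh7 summed, a replicate block, 1 library left out). The smallest adjusted p was 0.312, for Myh7 with the replicate number as a block. That block moved the calls over all genes to 75, against 70 without it. Libraries with the same number deviated together only weakly (correlation 0.106 over genes). No label says what the numbers share, so the main fit did not use them as pairs. The block gave a smaller SE for each of the 10 genes (Myh6 0.070, against 0.16 without it, and Myh7 0.054, against 0.092). Whether libraries of the same number share a source was not tested. A lone library in a leave-out is assumed to vary like the other group. Where the groups did not overlap, leaving out 1 library could hardly change a sign, so a kept sign is no further support there.

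With 1 library left out, log2 fold changes ran from -0.30 to 0.12 for Myh6, -0.056 to 0.19 for Myl3, -0.012 to 0.22 for Myl4, -0.052 to 0.099 for Tnnt2 and -0.017 to 0.24 for Tnnc1, and kept their sign for the other 5, with 0.0051 to 0.30 for Myl2, 0.083 to 0.25 for Tnni1, 0.044 to 0.42 for Tnni3, -0.27 to -0.12 for Myh7 and -0.33 to -0.032 for Myl7. The log2 ratio differences ran from -0.40 to 0.18 for Myh7 over Myh6, -0.24 to 0.10 for Tnni1 over Tnni3, -0.019 to 0.093 for Myl4 over Myl3, -0.39 to -0.28 for Myl7 over Myl2 and 0.21 to 0.48 for Myl2 over Myh7, and the difference in total share from -0.16 to 0.0043 points. The regulatory light chain share differed by -4.04 points, from -4.64 to -3.44 with 1 library left out, and by -2.40 with either transcript length; calls over all genes ran from 39 to 141 (39 without control replicate 3, 141 without cKO replicate 2).

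List medians ran, with 1 library left out, from -0.060 to -0.016 (sarcomere), -0.14 to 0.015 (other isoforms), -0.11 to 0.017 (atrial), -0.064 to 0.10 (ventricular), -0.081 to -0.0036 (regulators), -0.24 to -0.13 (endothelial), -0.16 to 0.49 (trabecular), -0.23 to 0.012 (compact), -1.46 to -0.12 (skeletal muscle), -1.11 to 0.26 (erythroid), -0.30 to 0.22 (cushion), -0.50 to -0.11 (epicardial) and -0.15 to -0.038 (heart muscle). Their calls ran from 0 to 1 for sarcomere, other isoforms, trabecular, skeletal muscle and epicardial genes, 0 to 2 for cushion and 0 to 7 for erythroid genes (7 without cKO replicate 3). The sarcomere median was -0.013 with upper-quartile scaling, and the replicate block called 1 sarcomere gene (Acta1). Upper-quartile scaling called 1 trabecular gene. Without the filter the medians were 0.034 (other isoforms) and 0.045 (atrial), and the atrial one was 0.054 at a mean of at least 5 CPM. Epicardial calls were 0 both without the filter and at a mean of at least 5 CPM. For each of these changes the cause was not tested.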
